A study of Homo sapiens with 8 samples.

Results

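The mRNA levels of 38 DNA repair and Fanconi anemia genes were examined in Raji and Raji-4RH cells treated with chidamide. The genes were chosen by name, as BRCA1, BRCA2 and their partners in homologous recombination, the Fanconi anemia genes, the genes of break sensing and end resection, the damage checkpoint kinases, the end joining genes, 2 mismatch repair genes and PARP1, out of the 63967 gene labels of the table. Values could be given for 36 of them. The choice of genes was made with earlier results of these data known. Raji is a Burkitt's lymphoma cell line that is sensitive to rituximab, the antibody against CD20, and Raji-4RH is the rituximab-resistant line obtained from it by exposure to rituximab. Each line was treated for 24 h with chidamide, an inhibitor of histone deacetylases, at 3 μM or with DMSO as the control, and harvested by flow sorting. Each of the 4 groups (Raji DMSO, Raji chidamide, Raji-4RH DMSO and Raji-4RH chidamide) had 2 RNA-seq libraries. Cells with DMSO are called control and cells with chidamide treated. Resistance is represented by 1 line and 1 parent, and nothing says whether the libraries of a group came from separate cultures, so the p-values measure the spread between these libraries, which may be technical.

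Cells repair a break through both strands of DNA by homologous recombination, which copies the sister chromatid and works mainly in S and G2 phase, or by end joining, which rejoins the ends in any phase. BRCA1 and its partners start recombination and bring BRCA2 to the break, where BRCA2 loads the recombinase. The Fanconi anemia proteins unhook crosslinks between the strands: a core complex attaches ubiquitin to FANCD2 and FANCI at a stalled fork, and inherited loss of these genes causes bone marrow failure. ATM and ATR are the kinases that sense damage, and CHEK1 and CHEK2 pass their signal on to halt the cell cycle. In B cells, end joining and mismatch repair also serve the rearrangement and class switching of antibody genes.

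The libraries held from 13991697 to 21193441 reads, with the lowest total in replicate 1 of Raji-4RH chidamide. Levels are given in FPKM, the reads of a gene scaled to its length and to the total of the library. The deposited values lie up to 14 rows below the labels they belong to, so every gene was read from the row that holds its values. Of the 36 genes with values, 15 stood in the row of their label and 21 were moved. FANCG, of the Fanconi core complex, and PRKDC, the catalytic subunit of the DNA-dependent protein kinase, were not placed and are not analysed here. After placing, 46 of 51 ribosomal protein genes past the first shift had a mean of at least 50 FPKM, against 4 of 51 in the row of the label. All 36 members passed the filter of at least 1 FPKM in at least 2 libraries, with at least 50 reads in every library. All 10 B cell markers examined, such as PAX5, had a mean of at least 1 FPKM in every group, while the summed levels of the T cell, myeloid and fibroblast markers placed reached at most 4.95, 8.42 and 2.47 FPKM in any library. Each library was closest to the other replicate of its own group. The correlation of the replicates was 0.992 in Raji-4RH chidamide and 0.998 in each other group.

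Chidamide lowered the mRNA of most repair genes in Raji-4RH cells. Of the 36 members, 30 were lower, 4 were higher and 2 (FANCL and TP53BP1) did not pass the test, which was limma on log2(FPKM + 1) with an adjusted p under 0.05. Over all 10710 genes tested, 31.6% were called lower and 43.3% higher. The median difference of the members on the log2(FPKM + 1) scale was -0.77, and that of all tested genes was 0.09. Of the 30 members that fell, 13 fell by at least 1 on this scale. The largest fall was that of FANCD2, the protein that receives ubiquitin in the Fanconi pathway. FANCD2 was at 17.7 and 16.1 FPKM in control and 2.60 and 3.05 in treated Raji-4RH cells, a 5.98-fold lower mean (log2 difference -2.23 ± 0.08 SE, limma adjusted p = 9.88e-08). CHEK1, the kinase that stops cells with stalled forks, was at 14.6 and 14.1 FPKM with DMSO and at 2.54 and 2.51 with chidamide (-2.12 ± 0.05, adjusted p = 3.57e-08). EXO1, a nuclease that trims DNA ends, was at 27.0 and 25.6 FPKM with DMSO and at 5.27 and 5.44 with chidamide (-2.10 ± 0.06, adjusted p = 5.31e-08). For these 3 genes the treated libraries lay far below the control libraries, with no overlap. The 4 members that rose were LIG4, FANCF, RAD50 and ATM, and LIG4, the ligase of end joining, rose most: 4.40 and 3.98 FPKM with DMSO and 8.28 and 7.71 with chidamide (0.79 ± 0.07, adjusted p = 9.49e-06). In bulk RNA, fewer cells of a kind and less RNA per cell cannot be told apart. Quantile normalization shifted the median of all tested genes by -0.11 and the share of all calls that were higher from 57.9% to 47.8%, and 29 members were then lower and 3 higher.

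**Figure D1:**
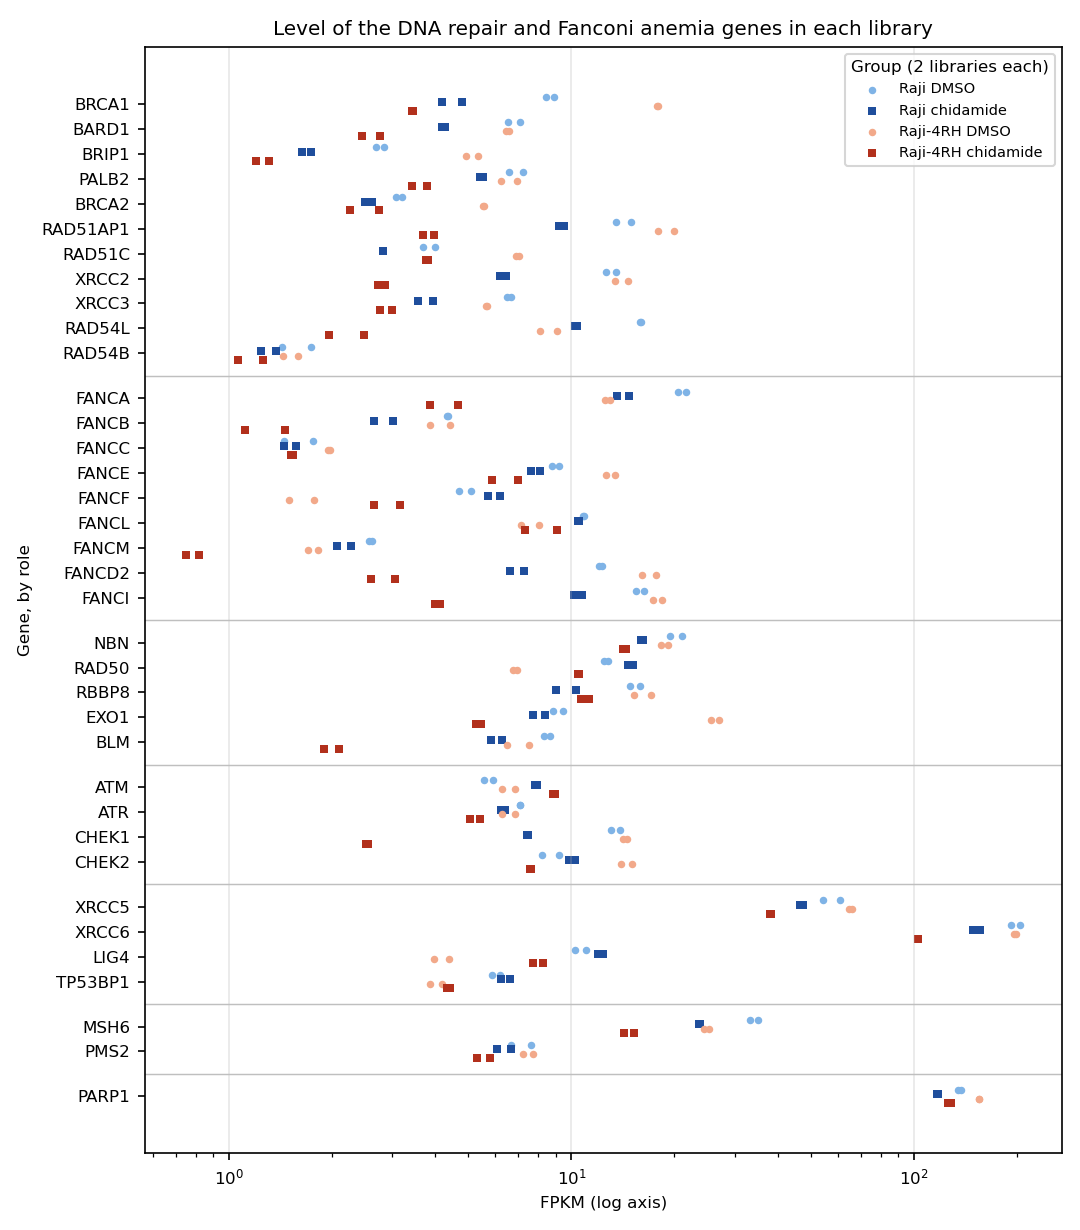
FPKM (log axis) of the 36 repair genes with values, by role, in each of the 8 libraries. Circles are DMSO and squares chidamide, in blue for Raji and in red for Raji-4RH, with 2 libraries per group. For FANCD2, CHEK1 and EXO1 the Raji-4RH chidamide libraries lie between 2.51 and 5.44 FPKM and those of Raji-4RH DMSO between 14.1 and 27.0, while for LIG4 the order is the opposite.

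The starts of the 3 genes that fell most and of the gene that rose most are shown so that the letters counted next can be seen. They were taken from RefSeq (GRCh38.p14), 5′ to 3′ on the strand of the gene, from 150 bases before to 20 bases after the annotated start. Capitals mark letters that match the searched E2F motif (TTTCCCGC, TTTCGCGC, TTTGCCGC or TTTGGCGC, in either direction), the CHR motif (TTTGAA or TTCGAA) or CCAAT, also in either direction. E2F factors and the CHR and CCAAT elements are known for driving genes of S, G2 and M phase.
FANCD2, chr3:10026287-10026456, plus strand: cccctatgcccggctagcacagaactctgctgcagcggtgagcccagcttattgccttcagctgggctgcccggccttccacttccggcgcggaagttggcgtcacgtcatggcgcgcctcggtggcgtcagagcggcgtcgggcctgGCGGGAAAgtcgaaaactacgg
CHEK1, chr11:125626079-125626248, plus strand: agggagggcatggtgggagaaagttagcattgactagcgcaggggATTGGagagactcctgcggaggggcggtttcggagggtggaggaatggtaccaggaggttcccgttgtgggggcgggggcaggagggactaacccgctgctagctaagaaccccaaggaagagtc
EXO1, chr1:241848054-241848223, plus strand: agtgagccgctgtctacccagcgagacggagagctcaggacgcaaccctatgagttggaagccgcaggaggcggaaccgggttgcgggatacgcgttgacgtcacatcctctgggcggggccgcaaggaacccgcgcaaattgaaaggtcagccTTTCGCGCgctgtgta
LIG4, chr13:108218330-108218499, minus strand: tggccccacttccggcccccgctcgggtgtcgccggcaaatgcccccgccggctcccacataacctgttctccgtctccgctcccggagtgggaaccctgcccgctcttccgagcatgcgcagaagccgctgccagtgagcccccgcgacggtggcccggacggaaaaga

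E2F letters stood at the start of FANCD2 and EXO1, CHEK1 had a CCAAT in reverse, and LIG4 had none of the searched letters in its window. Windows of 300 bases, from 250 before to 50 after the start, were at hand for 33 of the 38 members, without RAD54B, FANCI, NBN, XRCC5 and PRKDC. The E2F letters were present in 8 of these 33 windows (24.2%), those of FANCD2, EXO1, XRCC2, FANCA, FANCC, XRCC6, MSH6 and PMS2. They were present in 3.31% of all 35116 windows, and in 5.57% of the 8387 windows of tested genes. CCAAT was in 48.5% of the member windows, 34.6% of all windows and 37.4% of those of tested genes. The CHR letters were in 9.09%, 16.4% and 11%. The E2F letters were in 4 of 12 windows (33.3%) of members lower by at least 1 in Raji-4RH and in 4 of 14 (28.6%) of members lower by less than 1. CHEK1 stands among those without. The window used for BRCA1 had none either, but it lay on chromosome 17 from 43170278 to 43170577. That is outside the gene as annotated for the exons (43044295 to 43170245), and letters at other starts of BRCA1 were not counted. For 31 of the 33 windows, bases after the start were found in a transcript of the same gene. These are counts of letters, not of bound sites.

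In the parental Raji cells chidamide moved the repair genes less. Of the 36 members, 24 were lower and 5 higher (ATM, FANCF, RAD50, LIG4 and CHEK2), with a median log2 difference of -0.30, and 7 did not pass the test. Over all tested genes 28.5% were lower and 31.5% higher, with a median of 0.02. All 24 members that fell in Raji also fell in Raji-4RH, 4 were higher in both lines, and CHEK2 was lower in Raji-4RH and higher in Raji. No member fell by 1 or more on the log2(FPKM + 1) scale in Raji, where XRCC2 came nearest (-0.95, but -1.04 with a pseudocount of 0.1 and -1.05 with voom on the reads). The difference between the effects in the 2 lines, tested as an interaction, was called for 23 members. In 21 of them the value was more negative in Raji-4RH, against 21.7% of all tested genes, and in LIG4 and RAD50 it was more positive, against 27.2% of all tested genes. The median interaction was -0.46 for the members and 0.04 for all tested genes. EXO1 had the most negative interaction, at -1.94 ± 0.09 (limma adjusted p = 4.44e-06). It was at 9.42 and 8.84 FPKM in control and 7.70 and 8.36 in treated Raji cells. The Raji groups of EXO1 did not overlap but lay close, while those of Raji-4RH lay far apart. Each of the 23 interaction calls held in the 16 alternatives run gene by gene. Of the 29 calls within Raji, 20 held in each of the 17 run for it, and with every library centred on its median the split in Raji was 2 higher and 26 lower.

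**Figure D2:**
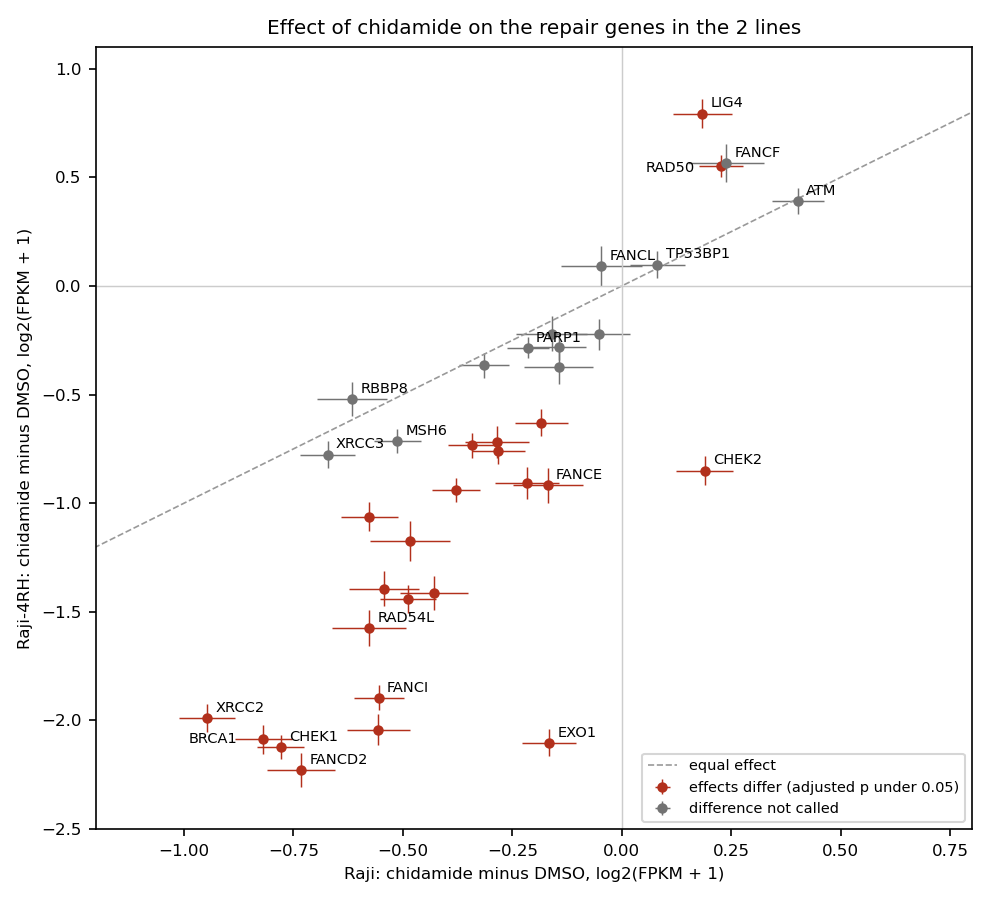
Chidamide minus DMSO on the log2(FPKM + 1) scale in Raji (x axis) and in Raji-4RH (y axis) for the 36 repair genes, with standard errors from limma as bars. The differences on the axes share no library. The spread behind the bars is pooled over all 8 libraries, so a gene has the same standard error in both lines. Red points are the 23 genes whose effects differ at an adjusted p under 0.05, and most lie below the dashed line of equal effect, EXO1 at -0.17 in Raji and -2.10 in Raji-4RH.

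All 11 members of homologous recombination were called lower in Raji-4RH, against 31.6% of all tested genes, with a median log2 difference of -1.06. In Raji 10 of 11 were lower, against 28.5% of all tested genes, with a median of -0.56. BRCA1 was at 17.8 and 17.9 FPKM in control and 3.44 and 3.43 in treated Raji-4RH cells, against 8.45 and 8.91 in control and 4.19 and 4.80 in treated Raji cells. Its mean fell 5.19-fold in Raji-4RH and 1.93-fold in Raji (log2 -2.09 ± 0.07 and -0.82 ± 0.07). Without drug BRCA1 was higher in Raji-4RH than in Raji, and with drug the Raji-4RH libraries were the lowest of all 8. A partial copy of BRCA1 lies in the genome beside it, so some of its reads are uncertain. The partners of BRCA1 in its heterodimer and at the fork, BARD1 and the helicase BRIP1, fell by 1.06 and 1.44 in Raji-4RH and by 0.58 and 0.49 in Raji. PALB2, which links BRCA1 to BRCA2, was at 6.95 and 6.24 FPKM in control and 3.79 and 3.43 in treated Raji-4RH cells. BRCA2 was at 5.53 and 5.55 FPKM in control and 2.26 and 2.73 in treated Raji-4RH cells (-0.91 ± 0.07, adjusted p = 7.47e-06), and in Raji it differed by -0.22 ± 0.07.

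RAD51AP1, a cofactor of strand exchange, was among the largest falls of this role. It was at 19.9 and 17.9 FPKM in control and 3.97 and 3.69 in treated Raji-4RH cells, against 13.5 and 15.0 in control and 9.20 and 9.50 in treated Raji cells. The log2 differences were -2.04 and -0.56, and their difference was -1.49 ± 0.10 (adjusted p = 2.18e-05). XRCC2, a paralog of the recombinase, had the largest fall of all members in Raji. It was at 12.7 and 13.5 FPKM in control and 6.42 and 6.18 in treated Raji cells, against 14.7 and 13.4 in control and 2.86 and 2.72 in treated Raji-4RH cells, so that the fall was 2.08-fold in Raji and 5.04-fold in Raji-4RH. The other paralogs moved less: RAD51C fell by 0.73 in Raji-4RH and 0.34 in Raji, and XRCC3 by 0.78 and 0.67. For XRCC3 the interaction was -0.10 ± 0.09 (adjusted p = 0.362), and 76.7% of its exon length is shared with other genes. The translocase RAD54L fell by 1.58 in Raji-4RH and 0.58 in Raji, while its relative RAD54B was at 1.44 and 1.59 FPKM in control and 1.06 and 1.26 in treated Raji-4RH cells. Of the exon length of RAD54B, 59.1% is shared with other genes. In Raji-4RH the call of RAD54B was lost in 7 of 17 alternatives, among them voom on the reads and, with adjusted p up to 0.172, leaving out either Raji-4RH DMSO library, replicate 1 of Raji-4RH chidamide or either Raji chidamide library. In Raji the calls of BRCA2 and PALB2 did not hold in every fit that left out 1 library. That of BRCA2 was lost without any of the 4 Raji libraries or either Raji-4RH DMSO library. That of PALB2 was lost without replicate 2 of Raji DMSO or replicate 1 of Raji chidamide. Over all fits of this kind the log2 difference ran from -0.24 to -0.19 for BRCA2 and from -0.34 to -0.23 for PALB2.

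In the Fanconi anemia pathway 7 of 9 placed members were lower in Raji-4RH, 1 was higher and 1 was not called, with a median of -0.92. In Raji 5 were lower, 1 was higher and 3 were not called, with a median of -0.18. Over all tested genes, 31.6% were lower and 43.3% higher in Raji-4RH, and 28.5% and 31.5% in Raji. The pair that receives ubiquitin fell together: FANCI was at 18.4 and 17.3 FPKM in control and 3.99 and 4.12 in treated Raji-4RH cells, a 4.39-fold lower mean, next to the 5.98-fold of FANCD2. In Raji both fell less, FANCD2 from 12.1 and 12.3 FPKM to 7.26 and 6.62 and FANCI from 15.4 and 16.2 to 10.2 and 10.7. FANCD2 has pseudogene copies, so its count carries some uncertainty. The interactions were -1.49 ± 0.11 for FANCD2 and -1.34 ± 0.08 for FANCI (adjusted p = 2.76e-05 and 1.25e-05).

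The core complex, which attaches that ubiquitin, was mixed. FANCA, a scaffold of the complex, was at 13 and 12.6 FPKM in control and 3.86 and 4.66 in treated Raji-4RH cells, and FANCB at 4.43 and 3.86 and at 1.11 and 1.45. These falls of 1.39 and 1.17 on the log2 scale were larger than those in Raji, 0.54 and 0.48. FANCE, which binds FANCD2, fell by 0.92 in Raji-4RH, from 12.6 and 13.4 FPKM to 5.88 and 6.99, and differed by -0.17 ± 0.08 in Raji (adjusted p = 0.0996), where it was called without replicate 1 (0.0286) or replicate 2 (0.0289) of Raji-4RH chidamide. FANCM, the helicase that anchors the complex to DNA, fell from 1.81 and 1.71 FPKM to 0.819 and 0.75 in Raji-4RH. FANCC was low in every group, from 1.45 to 1.97 FPKM, and its fall of 0.22 in Raji-4RH was lost without replicate 1 (adjusted p = 0.061) or replicate 2 (0.0757) of Raji-4RH DMSO. FANCL, the subunit with the ligase activity, was at 8.05 and 7.14 FPKM in control and 9.07 and 7.32 in treated Raji-4RH cells, and these groups overlapped; without replicate 2 of Raji-4RH chidamide it was called higher (0.23, adjusted p = 0.0199). FANCF, an adaptor of the complex, went the other way from most: it was at 1.5 and 1.77 FPKM in control and 3.16 and 2.65 in treated Raji-4RH cells, against 5.08 and 4.69 in control and 6.18 and 5.69 in treated Raji cells. Its rise on the log2 scale was 0.57 in Raji-4RH (adjusted p = 0.000382) and 0.24 in Raji (0.0426), and neither call held under quantile normalization. The interaction of FANCF, 0.33 ± 0.12 (adjusted p = 0.0551), was called without replicate 2 of Raji-4RH chidamide (0.0158), as was that of FANCL (0.0368). In Raji the calls of FANCF and FANCM also did not hold in every fit that left out 1 library. FANCF lost its call without any of the 4 Raji libraries, with log2 differences from 0.19 to 0.29 over all such fits. FANCM lost its call without either Raji DMSO library or replicate 1 of Raji chidamide, with log2 differences from -0.23 to -0.14.

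Among the genes of break sensing and end resection, 4 of 5 were lower and 1 was higher in each line. Over all tested genes, 31.6% were lower and 43.3% higher in Raji-4RH, and 28.5% and 31.5% in Raji. In Raji-4RH the nuclease and helicase of long resection, EXO1 and BLM, fell most, and in Raji RBBP8 did. BLM, the helicase mutated in Bloom syndrome, was at 7.52 and 6.47 FPKM in control and 2.09 and 1.90 in treated Raji-4RH cells, against 8.31 and 8.65 in control and 6.26 and 5.83 in treated Raji cells (interaction -0.98 ± 0.11, adjusted p = 0.00021). RBBP8 (CtIP), which starts resection, fell about as far in Raji, by 0.62, as in Raji-4RH, by 0.52, and the interaction was 0.10 ± 0.11 (adjusted p = 0.508). The sensor complex was split. NBN was at 19.1 and 18.2 FPKM in control and 14.4 and 14.2 in treated Raji-4RH cells, and its falls of 0.36 and 0.31 in the 2 lines differed by -0.05 ± 0.08 (adjusted p = 0.638). RAD50, the arm of that complex, rose from 6.92 and 6.76 FPKM to 10.4 and 10.6 in Raji-4RH and from 12.4 and 12.8 to 15.2 and 14.6 in Raji. Its rise was larger in Raji-4RH (interaction 0.33 ± 0.07, adjusted p = 0.00629), and 79.7% of its exon length is shared with other genes. The fall of EXO1 in Raji, -0.17 ± 0.06, was called at an adjusted p of 0.0473 and was lost without any of the 4 Raji libraries or either Raji-4RH DMSO library (0.0542 to 0.276).

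The 4 damage checkpoint kinases did not move together. In Raji-4RH CHEK1, CHEK2 and ATR were lower and ATM was higher, and in Raji CHEK1 was lower, ATM and CHEK2 were higher and ATR was not called. CHEK1 in Raji was at 13.1 and 13.8 FPKM with DMSO and at 7.45 and 7.40 with chidamide, a 1.81-fold lower mean against 5.68-fold in Raji-4RH (interaction -1.34 ± 0.08, adjusted p = 9.89e-06). CHEK2 was at 15.02 and 14 FPKM in control and 7.56 and 7.64 in treated Raji-4RH cells, but at 8.2 and 9.17 FPKM in Raji DMSO and at 9.85 and 10.2 FPKM in Raji chidamide. The groups went in opposite directions, and CHEK2 has pseudogene copies that make its reads less certain. The interaction of CHEK2 was -1.04 ± 0.09 (adjusted p = 6.93e-05). Its rise in Raji, 0.19 ± 0.07, had an adjusted p of 0.0348 and was lost without replicate 1 of Raji DMSO (0.204) or either replicate of Raji chidamide (0.0857 and 0.166). ATM, which answers to double-strand breaks, was at 6.86 and 6.26 FPKM in control and 8.86 and 8.93 in treated Raji-4RH cells, against 5.56 and 5.88 in control and 7.84 and 7.93 in treated Raji cells. Its rises of 1.36-fold and 1.38-fold were close, with an interaction of -0.01 ± 0.08 (adjusted p = 0.91). ATR, the kinase of stalled forks and the activator of CHEK1, fell by 0.28 ± 0.06 in Raji-4RH, from 6.85 and 6.26 FPKM to 5.04 and 5.40.

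End joining included the abundant Ku genes and was split in direction. XRCC6 and XRCC5, the subunits of the Ku ring that caps DNA ends, were lower in both lines. XRCC6 was at 197 and 199 FPKM in control and 103 and 103 in treated Raji-4RH cells, against 192 and 205 in control and 156 and 149 in treated Raji cells. XRCC5 went from 66.0 and 64.8 to 38.0 and 38.4 FPKM in Raji-4RH and from 54.3 and 60.7 to 46.6 and 47.4 in Raji. On the log2 scale XRCC6 and XRCC5 fell by 0.94 and 0.76 in Raji-4RH and by 0.38 and 0.28 in Raji, and both interactions were called (-0.56 ± 0.08 and -0.48 ± 0.09). LIG4 rose in both lines: in Raji it was at 11 and 10.2 FPKM with DMSO and at 12 and 12.4 with chidamide, a 1.15-fold higher mean against 1.91-fold in Raji-4RH (interaction 0.61 ± 0.09, adjusted p = 0.00111). The call of LIG4 in Raji (adjusted p = 0.0414) was lost without replicate 2 of Raji DMSO (0.204) or either replicate of Raji chidamide (0.0991 and 0.183). TP53BP1, which shields ends from resection, was not called in either line, at 4.20 and 3.85 FPKM in control and 4.34 and 4.42 in treated Raji-4RH cells (0.10 ± 0.06, adjusted p = 0.183).

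Of the mismatch repair members, MSH6, which recognizes mispaired bases, was at 25.2 and 24.4 FPKM in control and 14.3 and 15.2 in treated Raji-4RH cells, against 33.3 and 35.0 in control and 23.7 and 23.6 in treated Raji cells. Its falls of 0.71 and 0.51 differed by -0.20 ± 0.08 (adjusted p = 0.0607), and without replicate 2 of Raji-4RH chidamide that difference was called (0.0165). PMS2, the nuclease subunit of the pathway, has close pseudogene copies; it fell by 0.37 ± 0.08 in Raji-4RH and differed by -0.14 ± 0.08 in Raji. PARP1, the enzyme that marks strand breaks with poly(ADP-ribose), was at 155 and 155 FPKM in control and 126 and 128 in treated Raji-4RH cells, against 135 and 138 in control and 117 and 118 in treated Raji cells. The groups did not overlap, but the falls on the log2 scale, 0.28 and 0.21, were among the smallest called and were lost under quantile normalization. The fall of XRCC5 in Raji was also lost under quantile normalization.

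Without drug, the repair genes did not differ in 1 direction between the lines. Of the 36 members, 14 were higher in Raji-4RH DMSO than in Raji DMSO, 11 were lower and 11 were not called, and over all tested genes 41.2% were higher and 32.4% lower. The median difference was 0.03 for the members and 0.06 for all tested genes. With each library centred on the median of its tested genes the split was 10 higher and 13 lower. EXO1 had the largest difference on the log2(FPKM + 1) scale and was 2.88-fold higher in Raji-4RH, with 9.42 and 8.84 FPKM in Raji and 27.0 and 25.6 in Raji-4RH (log2 1.43 ± 0.06, limma adjusted p = 1.76e-07). BRCA1 was 2.06-fold, BRIP1 1.86-fold, RAD51C 1.81-fold, BRCA2 1.77-fold and CHEK2 1.67-fold higher in Raji-4RH. FANCF and LIG4 were the most reduced: FANCF was 2.99-fold and LIG4 2.53-fold higher in Raji than in Raji-4RH. RAD54L, RAD50 and FANCA were likewise higher in Raji, by 1.86-fold, 1.84-fold and 1.65-fold. XRCC6 was at 198 ± 8.99 FPKM in Raji and 198 ± 1.29 in Raji-4RH (mean ± SD, n = 2). The Raji-4RH DMSO libraries are shared with the comparison of chidamide in Raji-4RH. With chidamide, LIG4 was at 7.99 ± 0.40 FPKM in Raji-4RH and 12.2 ± 0.289 in Raji, and FANCF at 2.90 ± 0.367 and 5.94 ± 0.349.

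**Figure D3:**
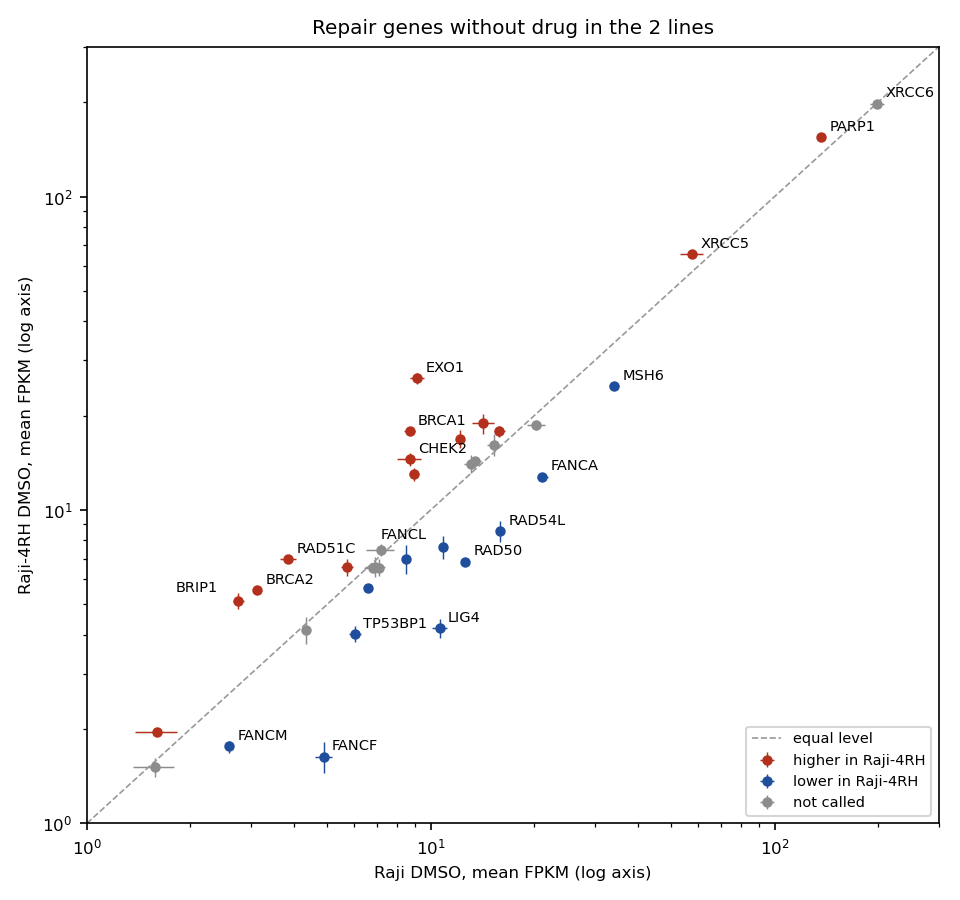
Mean FPKM of the 36 repair genes in Raji DMSO (x axis) and Raji-4RH DMSO (y axis), both log axes, with the SD over 2 libraries as bars. Red and blue points are genes called higher (14) and lower (11) in Raji-4RH; EXO1 lies farthest above the dashed line of equal level and FANCF farthest below.

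Some of these calls between the untreated lines were small and did not hold in every fit that left out 1 library. The differences named here kept their sign in these fits. That of XRCC3 ran from -0.21 to -0.18, and that of PARP1 from 0.17 to 0.20. The Raji chidamide libraries are not part of this comparison, and without them the differences of ATM, FANCI and FANCC did not change. ATM (0.17) and FANCI (0.16) lost theirs without replicate 1 of Raji DMSO, replicate 1 of Raji-4RH DMSO or either Raji chidamide library, with adjusted p up to 0.202 and 0.188. FANCC (0.19) lost its call without these or replicate 2 of Raji-4RH DMSO (up to 0.255). XRCC3 (-0.19) lost it without any of the 4 DMSO libraries (up to 0.0944) and XRCC5 (0.19) without replicate 1 of Raji DMSO or either Raji-4RH DMSO library (up to 0.145). PARP1 (0.18) lost it without either Raji-4RH DMSO library (up to 0.0541), and BLM (-0.25) without replicate 2 of Raji DMSO or of Raji-4RH DMSO (up to 0.138). NBN, not called, was called lower without replicate 1 of Raji DMSO (-0.17, adjusted p = 0.0499).

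Other repair genes, from lists of the remaining pathways written by hand with earlier results known, were also more often lower than higher. Over all of them the median lay nearer 0 than that of the members. Of 125 tested, 78 were lower and 28 higher in Raji-4RH, with a median of -0.30. In Raji 64 were lower and 19 higher, with a median of -0.19. Over all tested genes, 31.6% were lower and 43.3% higher in Raji-4RH, and 28.5% and 31.5% in Raji. Further damage checkpoint genes, a list that also held the cell cycle kinases WEE1, PKMYT1 and TTK, were an exception in both lines. With 8 of 13 lower and 1 higher in Raji-4RH, their median of -0.87 lay farther from 0 than the -0.77 of the members. In Raji, at -0.52, it lay farther than the -0.30 of the members. Further Fanconi genes, with 7 of 12 lower and 0 higher in Raji, were an exception in that line, with a median of -0.32. In Raji-4RH the median was, for further recombination genes, -0.44 (23 of 34 lower, 7 higher), and for further Fanconi genes -0.46 (8 of 12 lower, 3 higher). Base excision repair (14 of 21 lower, 4 higher) had a median of -0.31, nucleotide excision repair (9 of 16 lower, 6 higher) -0.22, further end joining and break marking genes (8 of 13 lower, 2 higher) -0.17, further mismatch repair genes (3 of 4 lower, 1 higher) -0.27, and translesion synthesis and direct reversal (5 of 12 lower, 4 higher) -0.12. The medians of excision repair and translesion synthesis in Raji-4RH thus lay closer to that of all tested genes than those of the recombination and Fanconi lists.

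**Figure D4:**
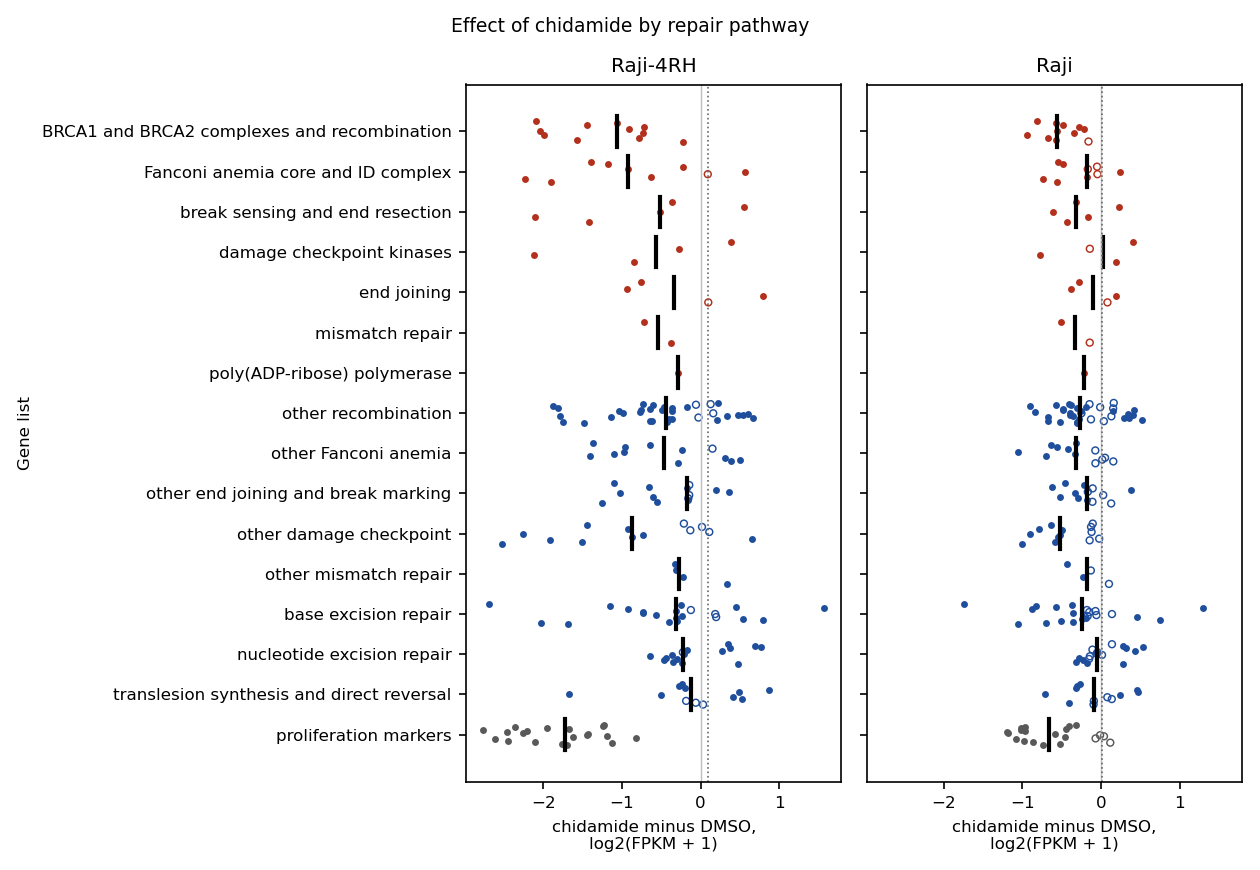
Chidamide minus DMSO on the log2(FPKM + 1) scale for single genes of each list in Raji-4RH (left) and Raji (right). Filled points passed the test and open points did not, black bars are medians and the dotted line is the median of all tested genes; the recombination members (median -1.06 in Raji-4RH) and the proliferation markers (-1.73) lie farthest to the left.

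Genes with the largest fall or the largest rise of their list in Raji-4RH are named. UNG, the glycosylase that removes uracil from DNA, fell from 45.5 ± 0.222 to 6.21 ± 0.281 FPKM (mean ± SD, n = 2; log2 -2.69), and in Raji from 37.4 ± 1.16 to 10.5 ± 0.0135. PKMYT1, a kinase that restrains mitotic entry, fell by 2.52 in Raji-4RH and 1.00 in Raji, and DNA2, a nuclease of long resection, by 1.88 and 0.90. RAD18, the ligase that starts translesion synthesis, fell by 1.68 and 0.71, and USP1, which removes ubiquitin from FANCD2, by 1.40 and 0.70. H2AFX, the histone variant phosphorylated around breaks, fell from 91.1 ± 6.81 to 37.7 ± 3.43 FPKM in Raji-4RH and was at 166 ± 16.8 and 181 ± 0.419 in Raji (interaction -1.38, adjusted p = 8.29e-05). MSH3, a partner of mismatch recognition, had the smaller fall of 0.32. Among the rises, NEIL2, a glycosylase for oxidized bases, rose from 2.33 ± 0.328 to 8.91 ± 0.0103 FPKM in Raji-4RH (log2 1.57) and from 0.811 ± 0.104 to 3.45 ± 0.0246 in Raji (1.30). POLI, a translesion polymerase, rose by 0.87 in Raji-4RH and ERCC1, a nuclease subunit of nucleotide excision and crosslink repair, by 0.76. ABRAXAS1, of a BRCA1 complex, rose by 0.66, ETAA1, an activator of ATR, by 0.66, FAN1, a crosslink nuclease, by 0.51, and POLM, an end joining polymerase, by 0.36. MSH4, a meiotic gene, rose by 0.34 from a level of 1.03 FPKM.

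Proliferation markers moved with the repair genes. All 20 of them, such as MKI67, PCNA and the MCM genes, were lower in Raji-4RH, with a median log2 difference of -1.73. In Raji 16 of 20 were lower, with a median of -0.66, against 31.6% of all tested genes in Raji-4RH and 28.5% in Raji. Their summed level was from 1674 to 1697 FPKM in Raji-4RH DMSO and from 430.1 to 446.1 in Raji-4RH chidamide, and from 1301 to 1306 in Raji DMSO and from 765.7 to 766.9 in Raji chidamide. The interaction was called in the same direction for 20 of 20, against 21.7% of all tested genes, with a median of -1.23. The summed level of the 36 repair genes was 759 and 741 FPKM in control and 427 and 433 in treated Raji-4RH cells, against 701 and 733 in control and 570 and 563 in treated Raji cells. Both sums were thus lowest in Raji-4RH with chidamide. XRCC6, PARP1 and XRCC5 were the most abundant of the 36 and weigh most in the sum of the repair genes. The median level of the 36 was 7.88 and 7.18 FPKM in control and 3.91 and 3.95 in treated Raji-4RH cells. In Raji it was 8.81 and 8.87 FPKM in control and 7.36 and 7.01 in treated cells. Without drug 12 of the 20 markers were higher in Raji-4RH and 4 lower (median 0.24), against 41.2% and 32.4% of all tested genes. No marker of the list had a mean under 1 FPKM in any group, and their part in the differences of the repair genes was not tested.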

How the data were processed

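RNA-seq of 8 libraries (4 groups of 2) was analyzed. The authors deposited 1 table of FPKM values with gene lengths. According to the submitters' processing notes, HISAT2 2.0.5, SAMtools 1.7, HTSeq 0.9.1 and DESeq2 1.22.2 were used with hg38; their settings are not given in the sources used here. The NEBNext Ultra kit was used for the libraries and no strand setting is known, so reads of overlapping genes cannot be told apart by strand here.

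FPKM multiplied by gene length and library total gave whole reads for 100% of values (tolerance 0.1 reads). Of the 63967 rows, the first 63305 add up to the library totals; the last 662 repeat the first 662. Values were taken from the row where they lie (0 to 14 rows below the label) and rescaled to the gene's own length, which placed 18143 labels and from 90.7% to 93.2% of the reads of each library. Around each placed member, the rule's distance was the best of 0 to 19 rows for 36 of 36 members, by the correlation across neighbouring rows of read level with what the annotation predicts. These correlations were modest, from 0.187 to 0.525. For some members the second best distance came near: 0.157 against 0.187 for TP53BP1 and 0.262 against 0.346 for FANCB.

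Differences were tested with limma 3.58.1 (lmFit, eBayes with trend, R 4.3.3) on log2(FPKM + 1), fitting all libraries together and keeping genes that reached 1 FPKM in 2 or more libraries, with Benjamini-Hochberg adjustment over all tested genes and a threshold of 0.05. Errors are standard errors (SE) of the fit or SD over libraries. Fold changes are ratios of mean FPKM, and log2 differences understate the change of low genes. With 2 against 2 libraries an exact permutation test cannot go below p = 0.333 and was not used. The labels give replicate numbers without saying whether they mark paired samples, and the main fit used no pairing.

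Every member is named. Of each list of other repair genes, the called genes with the largest rise and fall in Raji-4RH and no overlap between groups are named, except 1 gene that is not reported here. Promoters shown are those of the 3 members with the largest fall and the 1 with the largest rise. The members and all lists were chosen with earlier results of these data known. Alternatives were a pseudocount of 0.1, leaving out the filter, a filter on the mean (1 FPKM), quantile normalization, median-centred libraries, no trend, voom on the recovered reads, a replicate block, only the libraries compared, leaving out each library, and the rows as deposited; the rows before the first shift and a crossed pairing were added after the data were seen. Python 3.11.15 with pandas 2.3.3, numpy 2.4.6 and matplotlib 3.10.9 was also used. Coordinates of exons are those of GENCODE on GRCh38.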

Additional observations from a re-analysis of the deposited data

Results flagged for a closer look

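The effect of chidamide differed between Raji-4RH and Raji in 23 of the 36 repair genes, by the interaction term of limma (adjusted p under 0.05). Of all tested genes, 21.7% had a called negative interaction and 27.2% a called positive one. The interactions, as the log2 effect in Raji-4RH minus that in Raji, were -1.94 for EXO1, -1.49 for FANCD2, -1.49 for RAD51AP1, -1.34 for CHEK1, -1.34 for FANCI, -1.27 for BRCA1, -1.04 for XRCC2 and -1.04 for CHEK2. They were -0.998 for RAD54L, -0.98 for BLM, -0.95 for BRIP1, -0.85 for FANCA, -0.75 for FANCE, -0.69 for FANCB, -0.69 for BRCA2 and -0.56 for XRCC6. Smaller ones were -0.49 for BARD1, -0.48 for XRCC5, -0.45 for FANCM, -0.43 for PALB2 and -0.39 for RAD51C. LIG4 and RAD50 had a larger rise in Raji-4RH, by 0.61 and 0.33. The 20 proliferation markers had interactions in the direction of the falls as well, and their part was not tested.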

How the results depend on the processing

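Of the 36 members, the number called was 34 in Raji-4RH, 29 in Raji, 23 for the interaction and 25 between the untreated lines. Over all 10710 tested genes, 43.3% were called higher and 31.6% lower in Raji-4RH, and 31.5% and 28.5% in Raji. For the interaction these shares were 27.2% and 21.7%, and between the untreated lines 41.2% and 32.4%. Of 2412 comparisons of a member's call with an alternative, 2266 kept direction and call, 95 lost the call, 26 gained it and 25 changed sign. With the rows as deposited, where 24 members passed the filter and most moved genes carry the values of another label, the counts were 19, 17, 15 and 14. With only the rows before the first shift (15 members) they were 13, 11, 8 and 11. Leaving out each library gave from 32 to 35, from 22 to 30, from 23 to 26 and from 19 to 25. With each library centred on its median, the members called in Raji were 2 higher and 26 lower. With the replicate block the counts were 34, 27, 23 and 23. Correlations between groups of the deviations, replicate 1 minus replicate 2, were from -0.28 to 0.17. With 2 libraries per group they cannot show whether the numbers pair samples. A crossed pairing of Raji DMSO gave 34, 28, 23 and 24.

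Signs changed only for values that had not passed the test. Quantile normalization gave -0.13 for TP53BP1 in Raji-4RH, and for the interaction -0.16 for TP53BP1, -0.012 for FANCF, 0.019 for ATM and 0.062 for PARP1; centred libraries gave -0.018 for TP53BP1. Over the fits that each left out 1 library, values ran from -0.045 to 0.23 for FANCL in Raji-4RH and from -0.14 to 0.035 for FANCC in Raji. For the interaction they ran from -0.14 to 0.026 for RAD54B, from -0.11 to 0.0067 for NBN, from -0.070 to 0.043 for ATM and from -0.032 to 0.067 for TP53BP1. Between the untreated lines they ran from -0.12 to 0.012 for PALB2, from -0.12 to 0.048 for RAD54B, from -0.14 to 0.023 for FANCB, from -0.0061 to 0.15 for RBBP8, from -0.050 to 0.042 for XRCC6 and from -0.027 to 0.14 for PMS2. The cause of these changes was not tested. With 2 libraries per group, small differences are limited by the spread, and no second resistant line was measured here.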
